A study of Mus musculus with 10 samples.

Results

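The stretch of mouse chromosome 6 that holds Gdf3, Dppa3 and Nanog was examined for binding of FLAG-tagged Nanog and of Sin3a in partly reprogrammed cells. Every peak that shared a base with chr6:122500000-122750000 (build mm9) in 1 of the 4 deposited ChIP-seq peak lists was taken, without regard to its strength. This gave 51 of 110170 peaks. Merging peaks that shared at least 1 base joined them into 23 of 45707 sites, numbered here from 1 (farthest upstream of Nanog) to 23 (farthest downstream). The window was set with earlier results of these data known.

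Nanog encodes a homeodomain transcription factor of pluripotent cells. Nanog protein binds regulatory DNA around its own gene, and in embryonic stem cells the gene is known to depend on a promoter bound by Oct4 and Sox2 and on enhancers on both sides. Dppa3 (Stella) encodes a maternal and germ-cell protein that protects DNA methylation marks in the early embryo, and Gdf3 encodes a secreted ligand of the TGF-beta family. These genes are neighbours and are commonly active together in pluripotent cells. Sin3a is the scaffold of a co-repressor complex that carries histone deacetylases. In the RefSeq table, which is of build GRCm38 and was used for order only, the protein-coding genes follow each other as Gdf3, Dppa3, Nanog and Slc2a3, with 0 protein-coding genes between Dppa3 and Nanog.

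The cells were pre-iPSCs, cells arrested before full pluripotency, derived from female neural stem cells of strain 129/MF1. All groups carried an Oct4-GFP-IRES-puro reporter, were kept in serum with LIF, and had been stably transfected with PiggyBac vectors in which the CAG promoter drives the added gene. The transgenes gave 3 lines: Sin3a beside an empty vector (Sin3a line), FLAG-tagged Nanog beside an empty vector (Nanog line), or both FLAG-tagged Nanog and Sin3a (double line). Sin3a was precipitated from the Sin3a and double lines, and FLAG from the Nanog and double lines, each with 2 replicates. The labels do not say whether a line was a clone or a pool of selected cells. The antibody to FLAG sees the transgene product alone, so Nanog made from the gene examined here was not measured, and nor was the expression of any gene.

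Each group has 2 replicates and 1 list, with no value for a single replicate, and how the replicates entered the list is not stated, so differences between lists were described and not tested. Fold enrichment is the authors' value for a peak. It was read here as the ChIP pileup at the summit, scaled to the control, over the expected background, both raised by 1. This form was inferred from the values. Whether the control was the input or the IgG sample is not stated in the labels. The −log10 q is the authors' too, and ranks are by it within a list. Fragment numbers are whole ChIP fragments at the summit before scaling, solved from the fold and p-value of the peak, with 95% Poisson intervals that cover counting error only. The lists went down to a −log10 q of 1.30 to 1.33, so a site missing from a list was not called there, which does not show that it was unbound.

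None of the 51 peaks lay inside the Nanog gene or at its start. The rule places the gene at about 122657600-122664700. The last upstream peaks of any list ended at 122653616, 3.98 kb before the gene, and the first downstream peak began at 122689988, 25.3 kb behind it. The gap of 36.4 kb around the gene was the longest of the 22 gaps between sites of the window, and 74.0% of gaps between neighbouring sites of the genome were shorter. Both FLAG lines carry a Nanog transgene, whose coding sequence would map to the Nanog exons, but with 0 peaks of any list in the gene there was no site to which this caution applies.

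The promoter of Nanog is shown because no list had a peak there, although it holds an element known to be bound by Oct4 and Sox2. RefSeq has 2 start sites for Nanog and, in the table used here, no promoter for Dppa3 or Gdf3. The 300 bases around the downstream start run from 250 bases before to 50 after it, at chr6:122707315-122707614 of build GRCm38.p6 on the plus strand, coordinates that do not compare with the mm9 positions above. Capitals mark TTTGCATTACAATG, an octamer part (TTTGCAT) and a Sox part (ACAATG) spaced by 1 base, which begins 151 bases before the start.
Nanog promoter: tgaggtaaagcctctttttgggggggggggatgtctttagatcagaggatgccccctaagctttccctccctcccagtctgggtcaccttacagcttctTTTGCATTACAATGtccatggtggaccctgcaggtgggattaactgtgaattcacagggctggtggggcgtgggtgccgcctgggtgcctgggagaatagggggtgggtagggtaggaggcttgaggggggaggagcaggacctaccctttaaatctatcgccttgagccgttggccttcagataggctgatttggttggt
Searched on both strands as TTTGCATNACAATG, this motif was found in 2 of 32851 RefSeq promoters of the same length (0.00609%), which are the overlapping Nanog promoters. Its parts alone were in 4.63% (TTTGCAT) and 12.6% (ACAATG) of promoters, and both matches in Nanog fall within the capitals. TAATGG, a core that Nanog-type homeodomains are known to bind, was in 7.73% of promoters and in neither Nanog promoter. These matches describe the letters of the window only.

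The nearest binding lay just upstream of Nanog, in sites 17 and 18. Site 17, at 122652150-122653248, was among the stronger FLAG sites of the window. The Nanog line had a FLAG fold of 7.82 (rank 2707 of 38485) and the double line 6.69 (rank 4700 of 36286). Its summits held 89 FLAG fragments (71 to 110) in the Nanog line and 81 (64 to 101) in the double line, and lay 16 bases apart, 4.89 and 4.87 kb before the gene. The expected background was high here, at 9 and 8 scaled fragments against genome-wide levels of 4.68 and 4.76 in these lists, which lowers the fold. By fold alone the site ranked 6441 and 8184. Sin3a was called at site 17 in the double line alone, as a weak peak of rank 16791 of 18231, with a −log10 q of 3.36, a fold of 2.85 and 32 fragments (22 to 45). The Sin3a line, which has no Nanog transgene, had no peak there. That difference rests on a peak near the bottom of its list and was not tested. More Sin3a calls in the double line were not particular to this site. Between 120 and 130 Mb, the window left out, Sin3a peaks numbered 29.6 per Mb in the double line and 14.4 in the Sin3a line. Over the genome they numbered 6.91 and 6.51 per Mb. Site 18, at 122653354-122653616, had only weak FLAG peaks, with folds of 2.90 and 3.09.

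**Figure D1:**
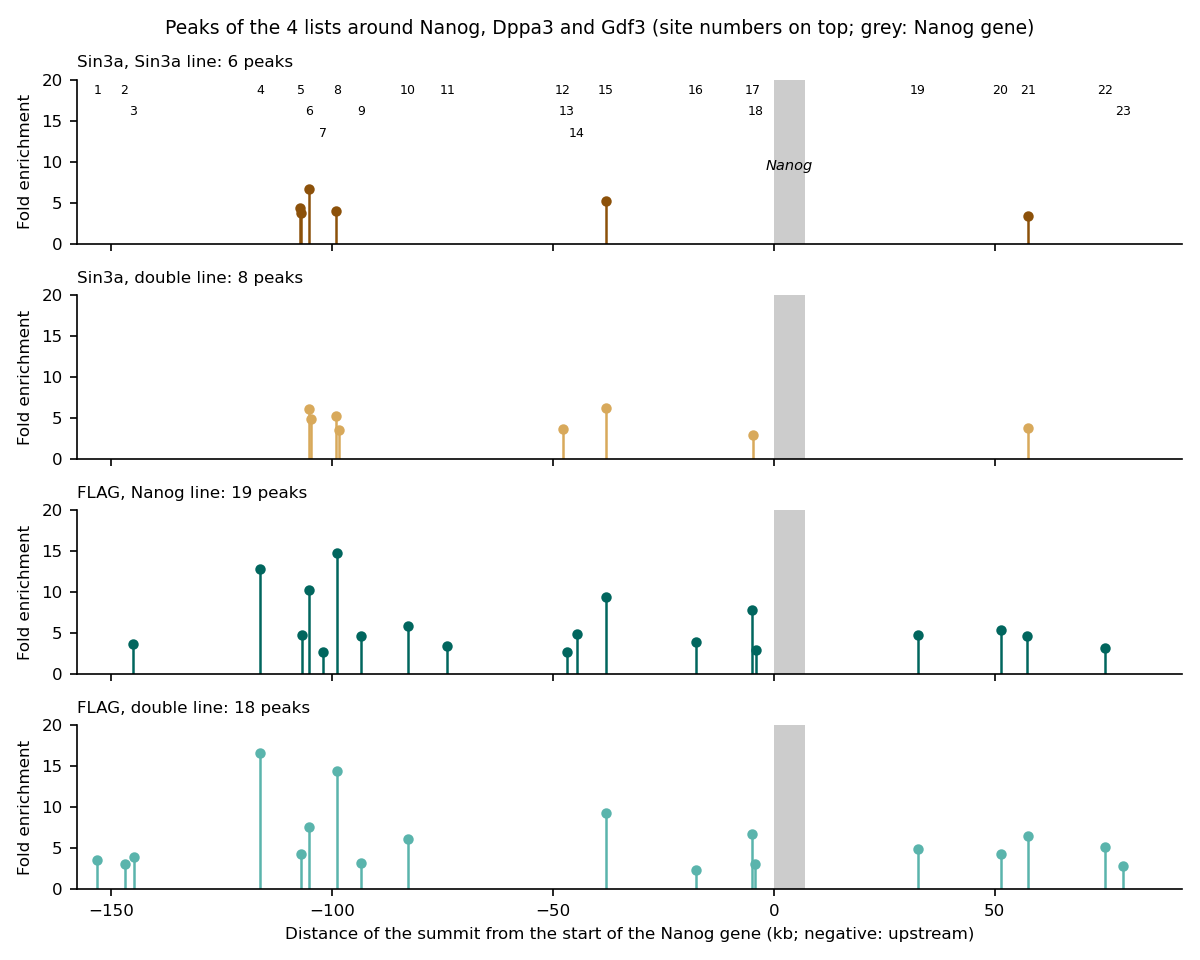
Fold enrichment of each peak (vertical axis, 0 to 20) against the distance of its summit from the start of Nanog in kb, with 1 panel for each list and site numbers on top. FLAG peaks are spread over the window, Sin3a peaks are fewer, and no peak falls in the grey Nanog gene. Folds are relative to each list and do not rank the proteins.

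FLAG peaks were dense in the window in both lines. The Nanog line had 19 FLAG peaks there and the double line 18, which is 76 and 72 per Mb against 14.6 and 13.7 per Mb over the genome. For Sin3a there were 6 peaks (Sin3a line) and 8 peaks (double line), 24 and 32 per Mb against 6.51 and 6.91. Of the 10547 windows of 250 kb that tile the genome, 96.5% held fewer FLAG peaks in the Nanog line and 97.3% fewer in the double line. For Sin3a, 90.9% held fewer in the Sin3a line and 93.9% in the double line. Empty windows make up much of these shares: 43.2% and 39.7% had no FLAG peak (Nanog and double lines). For Sin3a, 59.0% and 59.4% had none (Sin3a and double lines). The window is thus rich in peaks of both proteins without being extreme: 299 and 227 windows had more FLAG peaks in the Nanog and the double lines.

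The surrounding megabases were dense too. Between 120 and 130 Mb, the window left out, the FLAG lists held 45.2 peaks per Mb in the Nanog line and 39.4 in the double line. Sin3a peaks there numbered 14.4 per Mb in the Sin3a line and 29.6 in the double line. The limits of this stretch lie unevenly around the window and were set with earlier results of these data known. FLAG density in the window was 1.68 times that of these surroundings in the Nanog line and 1.83 times in the double line. For Sin3a it was 1.67 times in the Sin3a line and 1.08 times in the double line. The expected background exceeded the genome-wide level by over 2% at 15 of 19 FLAG peaks of the window in the Nanog line and at 13 of 18 in the double line, 78.9% and 72.2%, against 48.7% and 48.8% of all peaks of these lists. At Sin3a peaks it did so at 2 of 6 (Sin3a line) and 3 of 8 (double line), 33.3% and 37.5%, against 42.9% and 39.2%. The part of the background in these densities was not tested.

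**Figure D2:**
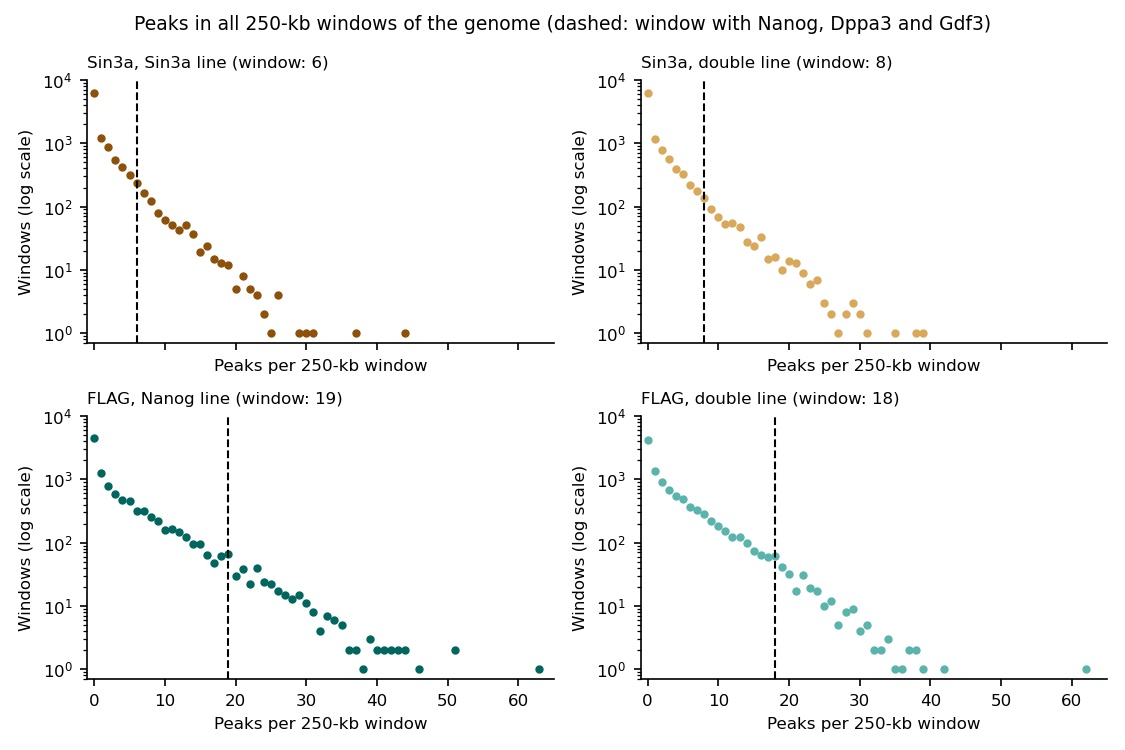
Number of 250-kb windows (vertical axis, log scale) with each number of peaks (horizontal axis), 1 panel for each list, with a dashed line at the window that holds Nanog, Dppa3 and Gdf3. The dashed lines, at 6, 8, 19 and 18 peaks, stand well to the right of most windows but short of the highest.

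FLAG peaks of the window were of ordinary strength as a group, with a few strong ones, while its Sin3a peaks were weaker at the median. Median fold of FLAG peaks was 4.75 in the Nanog line and 4.56 in the double line, against 4.75 and 4.74 in the rest of these lists. Median fold of Sin3a peaks was 4.18 in the Sin3a line and 4.33 in the double line, against 4.72 and 4.63. Their median −log10 q was 7.51 and 7.88, against 10.5 and 9.31. These differences were not tested. In the strongest 5% of their lists were 2 of 19 and 2 of 18 FLAG peaks, at sites 4 and 8, and 0 of the 14 Sin3a peaks.

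Site 4, at 122541046-122541620, carried the strongest FLAG peak of the window in both lines by −log10 q and no Sin3a peak. Its fold was 12.8 in the Nanog line, with rank 566 in the list and 53 on chromosome 6. In the double line its fold was 16.6, with rank 209 in the list and 17 on the chromosome. Ranked by fold it stood at 1242 and 410, and in the Nanog line site 8 had the higher fold. It held 117 fragments (97 to 140) and 180 fragments (155 to 208), in lists scaled by 0.868 and 0.731. The summits lay 5 bases apart, 116 kb upstream of the start of Nanog. The strongest FLAG site therefore lay far from Nanog itself, and which gene it belongs to was not assigned, since mm9 positions of Gdf3, Dppa3 and their neighbours were not used here.

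Sin3a gathered in a run of 4 sites, 5 to 8, over 9.59 kb at 122550211-122559797. The run was picked after its positions were seen. It covers 3.83% of the window and held 8 of its 14 Sin3a peaks (57.1%) and 7 of its 37 FLAG peaks (18.9%). Sites 5, 6 and 8 each had 2 Sin3a peaks in 1 line, which raises the Sin3a share, and site 7 had none. How common such runs are in the genome was not counted. Site 8, at 122557926-122559797, was the widest site and had strong FLAG peaks: fold 14.8 in the Nanog line (rank 656) and 14.4 in the double line (rank 730), on 101 (82 to 123) and 117 (97 to 140) fragments. Sin3a there had a fold of 4.04 in the Sin3a line, on 39 fragments (28 to 53). In the double line Sin3a had 2 peaks at site 8, with folds of 5.27 and 3.48 and summits at 122558657 and 122559249. The former lay 10 bases from the FLAG summit of the same line.

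Site 6, at 122551931-122553144, held the strongest Sin3a peak of the Sin3a line in the window. Its fold was 6.64, at rank 3783 of 17168, with 65 fragments (50 to 83). In the double line Sin3a again had 2 peaks, with folds of 6.04 and 4.89 on 46 and 37 fragments. The FLAG folds of site 6 were 10.2 (Nanog line) and 7.53 (double line). Site 5, at 122550211-122551056, had 2 Sin3a peaks in the Sin3a line, with folds of 4.31 and 3.76 against a list median of 4.72. None was called there in the double line, and this difference in calls was not tested. Its FLAG folds were 4.75 (Nanog line) and 4.23 (double line). Site 7, at 122555532-122555778, was a weak FLAG peak of the Nanog line alone, with a fold of 2.71.

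At site 15, at 122619244-122619788 and 37.8 kb upstream of Nanog, the summits lay closest together among the 4 sites called in every list. FLAG folds were 9.42 (Nanog line) and 9.31 (double line), on 64 (49 to 82) and 72 (56 to 91) fragments. Sin3a fold was 5.18 in the Sin3a line and 6.16 in the double line, on 46 (34 to 61) and 47 (35 to 63) fragments, the latter the strongest Sin3a peak of that list in the window. All 4 summits lay within 22 bases. Site 15 is described because its summits were the closest, so it does not stand for the window. Over 4 pairs of the window, Sin3a and FLAG summits were 87.5 bases apart at the median in the single-transgene lines (22 to 314). Over 4 pairs in the double line the median was 13.5 bases (1 to 78). The pairs are not all at the same sites. Sites 6, 15 and 21 are in both sets. Their distances were 95, 22 and 314 bases in the single-transgene lines and 9, 1 and 18 in the double line. Site 8 is in the former set alone and site 17 in the latter alone. At site 8 of the double line, summits of 2 Sin3a peaks lay 10 and 582 bases from the FLAG summit. Pairs of the single-transgene lines also span different cell lines. The difference was not tested. Genome-wide, these medians were 75 bases in the single-transgene lines (12999 pairs) and 82 in the double line (12359 pairs).

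Downstream of Nanog, site 21, at 122714757-122715390, was the one site with both proteins. Its FLAG folds were 4.65 (Nanog line) and 6.50 (double line), on 31 (21 to 44) and 52 (39 to 68) fragments. Sin3a fold was 3.43 and 3.78 in the Sin3a and double lines, on 30 (20 to 43) and 33 (23 to 46) fragments. The FLAG summits of the lines lay 360 bases apart. That of the double line was 18 bases from the Sin3a summit of the same line, and that of the Nanog line was 314 bases from the Sin3a summit of the Sin3a line. FLAG summits 300 bases or more apart occurred at 2 of 15 FLAG pairs of the window, sites 5 and 21, and at 2.54% of all FLAG pairs. The 300-base limit was set after these distances were seen.

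**Figure D3:**
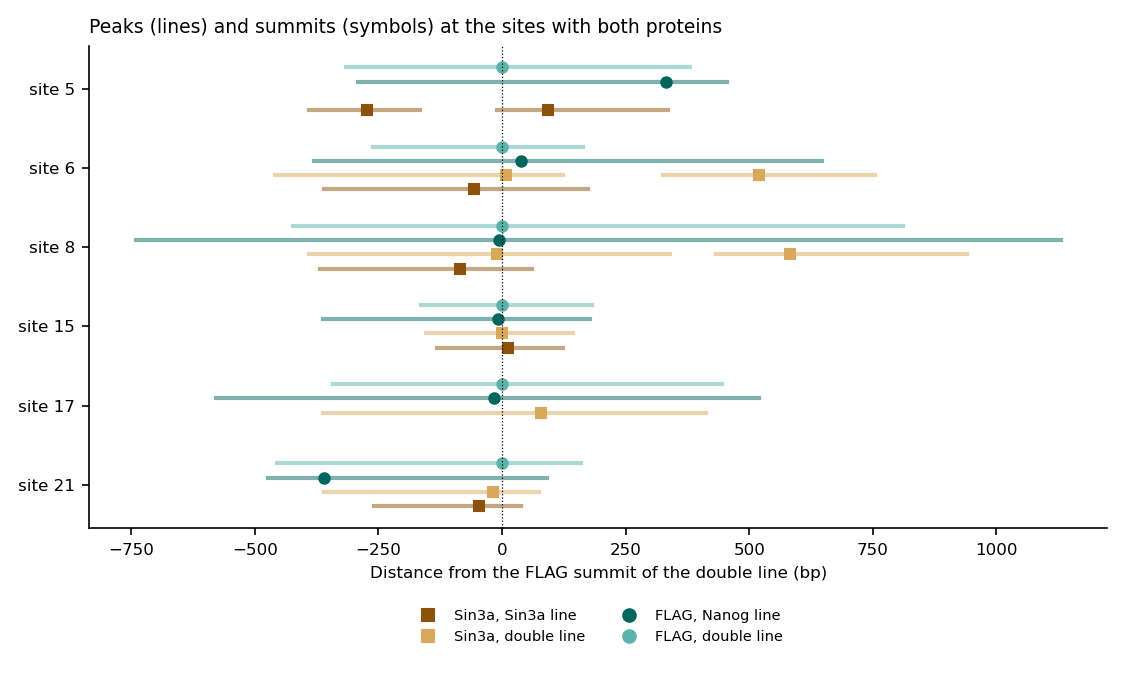
Extent (lines) and summit (symbols) of each peak at the 6 sites with both proteins, as the distance in bp from the FLAG summit of the double line. Summits of all lists coincide at site 15, within 22 bases, while at sites 5 and 21 the FLAG summits of the lines lie 332 and 360 bases apart.

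FLAG peaks without Sin3a made up the rest, apart from site 12. Those called in both lines lay upstream at sites 3, 4, 9, 10, 16 and 18 and downstream at sites 19, 20 and 22. Site 10, at 122574516-122574915, had FLAG folds of 5.90 and 6.15 in the Nanog and double lines, with summits 14 bases apart. Downstream, site 20 at 122708732-122709236 had folds of 5.41 and 4.25 and a summit at the same base in both lines, and site 19 at 122689988-122690325 had 4.75 and 4.87. Site 4 was the strongest of these sites in both lines, and the order of the others differed between lines. Sites 9 and 16 had folds of 4.60 and 3.93 in the Nanog line, and of 3.21 and 2.39 in the double line. At site 16 the scaled pileups were close, at 22.6 (Nanog line) and 20.5 (double line), while the expected background was 5 and 8. Sites 3 and 22 had 3.63 and 3.21 in the Nanog line, and 3.97 and 5.10 in the double line.

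Of the 23 sites, 8 were called in 1 list only, 34.8% against 34.2% of all sites. FLAG sites of the Nanog line alone were 7, 11, 13 and 14, with folds of 2.71 to 4.88. FLAG sites of the double line alone were 1, 2 and 23, with folds of 2.78 to 3.60. Site 12, at 122609664-122609936, was the sole Sin3a-only site, in the double line, with a fold of 3.62 on 29 fragments (19 to 42). The highest fold among them, 4.88 at site 14 (122612927-122613226, rank 17982 of 38485), was close to its list's median of 4.75, and the other sites lay below the median fold of their lists. Sites 12, 13 and 14 lay close together, 44.4 to 47.7 kb upstream of Nanog.

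By class, FLAG-only sites were 16 of 23 (69.6%), against 57.5% of all sites. Sites with both proteins were 6 (26.1%), against 37.2%, and sites in all 4 lists 4 (17.4%), against 25.7%. FLAG was called in both lines at 15 sites (65.2%), against 59.2%, and Sin3a in both lines at 4 (17.4%), against 30.0%. With 23 sites these shares were not tested, and they moved with the limits of the window: widened by 50 kb on each side, it held 7 of 28 sites in all 4 lists and 18 with FLAG alone. Of the Sin3a peaks, 6 of 6 of the Sin3a line overlapped FLAG in the Nanog line, against 88.5% of that list, and 6 of 8 of the double line overlapped a FLAG peak of the same line, against 80.3%.

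FLAG peaks were higher and wider at sites with Sin3a than elsewhere in the window. In the Nanog line the median FLAG fold was 8.62 over 6 peaks with Sin3a (4.65 to 14.8) and 3.93 over 13 without (2.71 to 12.8). In the double line it was 7.11 over 6 peaks (4.23 to 14.4) and 3.78 over 12 (2.39 to 16.6). The ranges overlap, with site 4 the highest of the FLAG peaks without Sin3a in both lines. The same order held in the genome, at 5.80 against 4.30 and 5.25 against 4.36. Median widths in the window were 888 against 351 bp in the Nanog line and 657 against 314 bp in the double line, and strength was not separated from width.

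Whether added Sin3a changed the FLAG signal at the locus was asked at the 15 sites with 1 FLAG peak in each line, as the ratio of scaled pileups at the summits, double line over Nanog line. A ratio compares 2 lists, not 2 conditions. Over all 25784 such pairs of the genome the median ratio was 0.920, and the quartiles were 0.796 and 1.08. The window's median was 0.955, with 6 ratios above 1 and 9 below. Past 1.5-fold in either direction was 1 of 15 pairs, against 11.3% of all pairs. Counting intervals lay wholly above 1 at sites 4 and 22, which is 2 of 15 pairs, and left out 1 in either direction at 9.64% of all pairs. At site 4 the scaled pileup was 102 in the Nanog line and 132 in the double line, a ratio of 1.30 (1.02 to 1.65). At site 22 it was 20.8 and 35.1, a ratio of 1.69 (1.01 to 2.88), and 96.9% of all pairs had a lower ratio. The lowest ratios were 0.73 at site 9 (0.41 to 1.29), 0.74 at site 6 (0.51 to 1.07) and 0.77 at site 17, next to Nanog (0.56 to 1.05). Their intervals include 1. At site 8 the ratio was 0.98 (0.74 to 1.29) and at site 15 it was 0.95 (0.67 to 1.35).

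**Figure D4:**
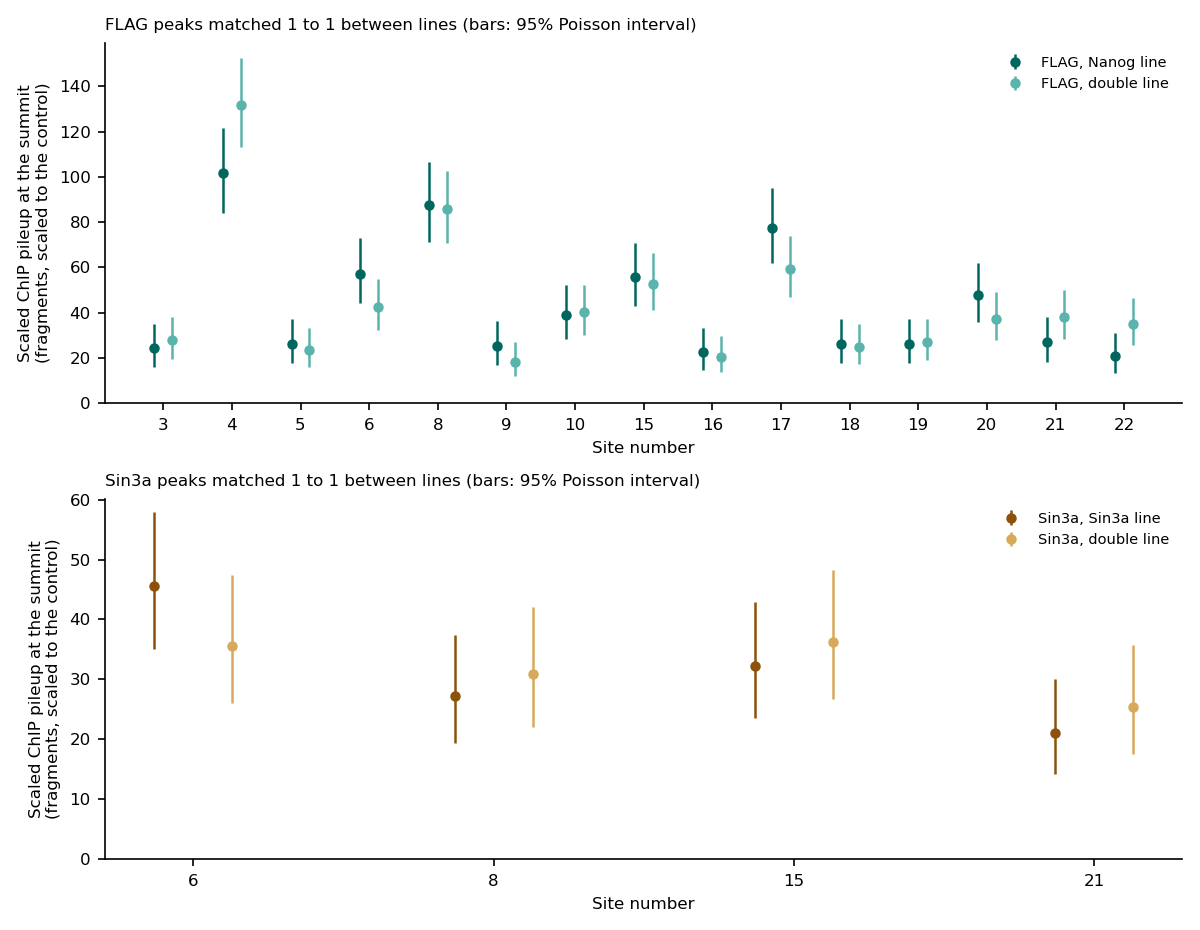
Scaled ChIP pileup at the summit (vertical axis, fragments scaled to the control) at peaks matched 1 to 1 between lines, FLAG above and Sin3a below, with 95% Poisson intervals. FLAG pileup at site 4 is 102 in the Nanog line and 132 in the double line, and the intervals of the lines overlap at every Sin3a site.

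Sin3a was compared in the same way at the 4 sites where 1 Sin3a peak of each line matched, double line over Sin3a line. The scaled pileups were 45.5 and 35.5 at site 6, a ratio of 0.78 (0.52 to 1.16). They were 27.3 and 30.9 at site 8, a ratio of 1.13 (0.71 to 1.80). At site 15 they were 32.2 and 36.3, a ratio of 1.13 (0.73 to 1.73), and at site 21 they were 21.0 and 25.5, a ratio of 1.21 (0.72 to 2.06). Past 1.5-fold were 0 of 4 pairs, against 5.20% of the 12820 Sin3a pairs of the genome, whose median ratio was 0.940. All 4 intervals include 1, as did those of all but 5.41% of the Sin3a pairs of the genome, and changes within these bounds were not excluded.

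**Figure D5:**
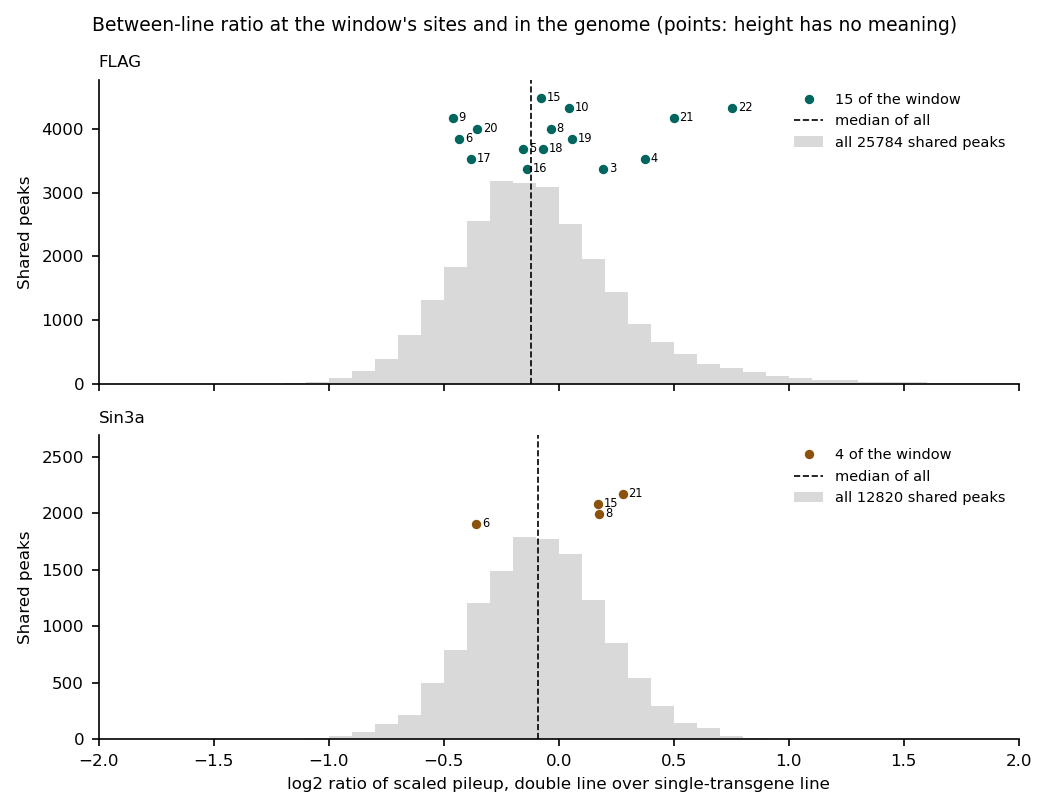
Distribution of the log2 ratio of scaled pileup between lines (horizontal axis) over all shared peaks of the genome (grey bars, vertical axis: number of peaks), with the window's sites as numbered points whose height has no meaning. FLAG sites spread on both sides of the genome median, the dashed line, with sites 21 and 22 farthest to the right.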

How the data were processed

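ChIP-seq peak lists of 4 groups were analysed, each with 2 replicates and 1 deposited list. Input and IgG were not analysed here. Per the submitters' processing notes, FastQC 0.10.1, Bowtie 1.0.0 and SAMtools 0.1.19 were used on build mm9. For the peak caller, its control, the pooling of replicates and total reads, nothing is given in the sources used here. Each deposited list gives a score per peak (10 times the −log10 q without decimals in 100% of peaks), a fold enrichment, a −log10 p, a −log10 q and a summit. Lists were matched to groups by the sample titles.

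The deposited fold was taken to equal (scaled pileup + 1)/(background + 1), and the deposited −log10 p to be a Poisson tail at the scaled pileup. Both forms are inferred. Solving both gave 1 fragment number for 99.6% to 99.98% of peaks of a list, with scales of 0.700 (Sin3a line) and 0.772 (double line) for Sin3a, and 0.868 (Nanog line) and 0.731 (double line) for FLAG. The code was tested on simulated data. Peaks were merged by 1 shared base. Ratio intervals are exact binomial intervals of the 2 fragment numbers. The comparison windows tile each mm9 chromosome (lengths from GenomeInfoDb 1.38.1). Sites were numbered by position. Those with both proteins and the strongest peaks were given with coordinates and folds and, for some, ranks, fragments and summits. The others were given by fold or a range of folds, not all with coordinates. Members, window, surrounding stretch and lists were chosen with earlier results of these data known. Alternatives were stricter −log10 q, other rules of overlap, a wider window, another grid, and other scalings and ranks. Python 3.11.15, pandas 2.3.3, NumPy 2.4.6 and SciPy 1.17.1 were used, with plots in Matplotlib 3.10.9.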

Additional observations from a re-analysis of the deposited data

How the results depend on the processing

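No paired analysis was possible because no list gives a value for a single replicate, and none could be left out. At a −log10 q of at least 10 the window held 2 and 3 Sin3a peaks (Sin3a and double lines) and 8 and 9 FLAG peaks (Nanog and double lines). These formed 10 sites: 7 with FLAG alone, 3 with both proteins and 0 with Sin3a alone. Among them 2 were in all 4 lists, 7 had FLAG in both lines and 2 had Sin3a in both lines. At a −log10 q of at least 5, FLAG-only sites were 10. Joining summits within 200 bp gave 4 Sin3a-only sites, since second Sin3a peaks then stand alone. Widening the window by 50 kb on each side gave 7 sites in all 4 lists and 7 with Sin3a in both lines. The share of equal windows with fewer peaks, at a −log10 q of at least 10, was 81.3 and 88.7% for Sin3a and 94.4 and 96.9% for FLAG, and at 5 it was 93.2% for Sin3a in the double line and 95.3 and 95% for FLAG. FLAG pairs past 1.5-fold were 2 with the ratios divided by the genome median, and 2 with fold in place of pileup. Stricter lists hold fewer peaks; for the other settings the cause was not tested. Ranking by fold moved 4 of 51 ranks by over 1.5 times, those of FLAG at sites 4 and 17. Summits held 22 to 180 fragments, so ratios near 1 cannot be resolved.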

Other observations

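Just beyond the window, within 50 kb of its ends, lay 5 further sites, all of them downstream of Nanog, and 3 of these were in all 4 lists. The strongest, at 122760083-122761948 on chromosome 6 (mm9), had a FLAG fold of 16.7 in both the Nanog and the double lines, at ranks 439 and 451, and Sin3a folds of 3.35 (Sin3a line) and 4.71 (double line). At 122769413-122770632 the Sin3a folds were 5.18 and 6.16, and FLAG folds 3.84 in the Nanog line and 3.73 in the double line. At 122776407-122776927 the FLAG folds were 6.41 and 5.43 and the Sin3a folds 3.89 and 4.08. Folds are relative to each list and do not rank the proteins against each other. The end of the window at 122750000 therefore leaves out a FLAG site of a rank like those of sites 4 and 8.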
